A study of Rattus norvegicus with 6 samples.

Results

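The nuclear-encoded genes of the mitochondrial respiratory chain and the ATP synthase were followed in rat hearts. They were taken as the named rows whose platform symbol begins with Nduf, Uqcr, Atp5 or Cox and a number, together with Sdha, Sdhb, Sdhc, Sdhd and Cyc1. This gave 88 genes of the 15037 with a symbol, each with 1 row among the 23188 rows tested. They comprise 73 subunits, 14 assembly factors and the ATP synthase inhibitor Atp5if1. The subunits fall into complex I (32 genes), complex II (4), complex III (9), complex IV (15, counting Ndufa4 and Ndufa4l2) and complex V, the ATP synthase (13). The RefSeq annotation of the rat lists 128 protein-coding genes under the same symbols, and the other 40, among them Cox7a1, Cox6b2 and Atp5f1c, had no named row and were not analysed here. The subunits encoded by mitochondrial DNA had no named row either.

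RNA of whole hearts was hybridised to 6 Clariom S Rat arrays, which give 1 log2 signal per transcript cluster. There were 2 arrays from each of 3 groups of hearts of male, 10-week-old Sprague-Dawley rats. The normal group is described as healthy heart. TAC hearts had the transverse aorta tied with silk over a 21-gauge blunt needle, which narrows the vessel and loads the left ventricle. TAC-R hearts were released from that tie. Control rats that had the operation without the tie are mentioned too, and the labels leave unsaid whether they gave the normal hearts. The durations of TAC and of release are not given either. Nothing says that the arrays of a group are from separate animals, and the p-values therefore reflect only the scatter of these arrays, possibly a technical one. The field on RNA isolation names cultured fibroblasts, in contrast to the other fields, which name whole heart. Of 16 heart muscle markers measured, 5 lay at the top of the scale (19.93) on all arrays and none lay in the background.

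The respiratory chain passes electrons from NADH (complex I) and succinate (complex II) through ubiquinone to complex III, then through cytochrome c to complex IV, which reduces oxygen to water. Complexes I, III and IV pump protons across the inner mitochondrial membrane, and complex V lets them back to make ATP. The working heart draws nearly all of its ATP from this pathway, and its muscle cells are packed with mitochondria. Most subunits are encoded in the nucleus, and their promoters are known for sites of NRF1, GABP, YY1 and the oestrogen-related receptors, which act with the coactivator Ppargc1a.

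Promoters from RefSeq (assembly GRCr8, from 250 bases before to 50 after the annotated start) were found for 64 of the 73 subunits. They are shown here because these genes are commonly described as a co-regulated set. Neither joint movement of the transcripts nor a relation of the motifs to the array values was tested. Searched on both strands, the NRF1 motif (GCGCA, any base, then GCGC) was present in 10 of the 64 (15.6%), against 4.71% of all 27457 promoters and 6.08% of the protein-coding ones. The YY1 motif AAGATGGC was present in 13 (20.3%, against 3.44% of all and 3.92% of protein-coding), the ETS motif CCGGAAGT bound by GABP in 8 (12.5%, against 4.01% and 4.99%) and the receptor motif AAGGTCA in 9 (14.1%, against 4.37% and 3.71%). The Sp1 motif GGGCGG was in 40.6%, against 34.9% of all but 43.1% of protein-coding promoters. The NF-Y motif CCAAT was in 32.8%, against 37.7% and 38.4%, and TATAAA in 9.38%, against 14.3% and 13.1%. None of the 7 motifs contains another. At least 1 of the first 4 was present in 32 of the 64. The median GC content was 57.0% in the subunit promoters, 52.3% in all and 55.3% in protein-coding ones. A match is a string of letters in a window and was not tested as a binding site. The 150 bases before the start are printed for 1 subunit of each complex, chosen for carrying matches, with each NRF1 or ETS match that lies wholly within them in capitals. Read 5′ to 3′ on the strand of the gene, they are Ndufv3 of complex I (chr20:9613636-9613785, plus strand, 1 NRF1 match), Sdha of complex II (chr1:30764403-30764552, plus, 2 NRF1 matches), Uqcrc1 of complex III (chr8:118468073-118468222, plus, 1 NRF1 match), Cox8a of complex IV (chr1:213833624-213833773, minus, 2 ETS matches) and Atp5po of complex V (chr11:44657484-44657633, minus, 1 NRF1 match).
Ndufv3: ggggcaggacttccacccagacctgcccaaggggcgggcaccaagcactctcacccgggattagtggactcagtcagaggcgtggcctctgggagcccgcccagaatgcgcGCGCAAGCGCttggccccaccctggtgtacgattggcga
Sdha: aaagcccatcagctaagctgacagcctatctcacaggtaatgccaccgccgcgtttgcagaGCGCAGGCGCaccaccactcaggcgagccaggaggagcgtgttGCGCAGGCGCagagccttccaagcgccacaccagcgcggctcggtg
Uqcrc1: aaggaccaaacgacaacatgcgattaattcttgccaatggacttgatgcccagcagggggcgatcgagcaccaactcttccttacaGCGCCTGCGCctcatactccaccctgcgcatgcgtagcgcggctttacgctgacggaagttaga
Cox8a: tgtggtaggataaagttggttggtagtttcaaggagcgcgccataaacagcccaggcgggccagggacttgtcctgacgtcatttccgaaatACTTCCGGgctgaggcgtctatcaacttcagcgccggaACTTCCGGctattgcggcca
Atp5po: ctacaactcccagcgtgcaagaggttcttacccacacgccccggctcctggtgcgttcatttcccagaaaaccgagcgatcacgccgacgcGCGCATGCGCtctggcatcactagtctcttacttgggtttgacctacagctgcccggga

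Signal was well above the array's background for most of these genes. On each array the background was set at the 95th percentile of the negative control rows, which lay between 8.09 and 8.55. Above it on all 6 arrays were 80 of the 88 genes, including 70 of the 73 subunits, against 5243 of the 23188 tested rows. The other 8 were in the background on all arrays. They are the low-oxygen and testis isoforms Cox4i2, Ndufa4l2 and Cox8c and the assembly factors Ndufaf4, Ndufaf5, Ndufaf7, Cox18 and Cox19, so sizes of their differences are not measured. None of the 88 reached the top of the scale, but Cox6a2, Atp5f1a and Atp5f1b came within 0.55 of it on at least 1 array, which leaves little room for a higher reading. For 41 of the 88 RefSeq lists pseudogenes named after them, up to 8 for Atp5mg and 7 for Ndufb4, and a probe for such a gene may also read those copies. In RNA from whole hearts, fewer cells of a type and less RNA per cell cannot be told apart.

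None of the 88 genes passed limma's test in any comparison. The threshold was 0.05 on p-values adjusted by Benjamini and Hochberg's method across the tested rows. It was passed by 0.254% of all rows in TAC against normal, 0.431% in TAC-R against TAC and 0.0906% in TAC-R against normal. An unadjusted p under 0.05 was reached by 4, 1 and 0 of the 88 genes (2, 1 and 0 of the 73 subunits), against 10.3%, 11% and 10.7% of all rows. The smallest adjusted p was 0.368 for Atp5if1 in TAC against normal, 0.372 for Ndufa2 in TAC-R against TAC and 0.474 for Atp5if1 in TAC-R against normal. A p above the threshold does not show that the groups were alike, and the sizes that the data allow are given by the 95% intervals of the differences. On the log2 scale, where 1 is a 2-fold change, these intervals lay inside -1 to 1 for 79 of the 88 genes in TAC against normal, 86 in TAC-R against TAC and 79 in TAC-R against normal. The same held for 73%, 73.5% and 73.1% of all tested rows, and for 86%, 82.4% and 84.2% of the rows above background on all arrays. The counts for the 88 include the 8 genes in the background. The intervals are per gene and are not widened for the number of genes. Their median reach to either side was 0.521.

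The 73 subunits were spread about zero in each comparison. Their median difference was 0.00575 for TAC minus normal, with an interquartile range of 0.256, and 38 of the 73 were positive. For TAC-R minus TAC the median was 0.054 with a range of 0.195, and for TAC-R minus normal it was 0.039 with a range of 0.315. Over all tested rows the medians were 0.0017, 0.0045 and 0.0040, and the interquartile ranges were 0.452, 0.452 and 0.459. Over the 5243 rows above background the medians were 0.059, 0.013 and 0.078, with ranges of 0.360, 0.403 and 0.387. Subunits whose 2 groups did not overlap numbered 32 (43.8%) in TAC against normal, 15 higher and 17 lower, where 43.3% of all rows did not overlap (21.9% higher and 21.3% lower). They numbered 17 (23.3%, against 40.5% of all rows) in TAC-R against TAC, 13 of them higher and 4 lower (20.1% and 20.4% of all rows). In TAC-R against normal they numbered 25 (34.2%, against 40.9%), 16 of them higher and 9 lower (20.6% and 20.3%). Of the 5243 rows above background, 49.7%, 48.5% and 46.2% did not overlap in the same order of comparisons. Among them 1625, 1319 and 1540 were higher, and 983, 1226 and 883 lower. Below, complex I is set against both kinds of rows and the other complexes against all rows only. The comparisons with a group in common share its arrays. All 3 medians changed sign when single arrays were left out. A further quantile normalisation gave -0.0147, 0.0184 and -0.0158, which turns the sign of the first and the last.

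**Figure D1:**
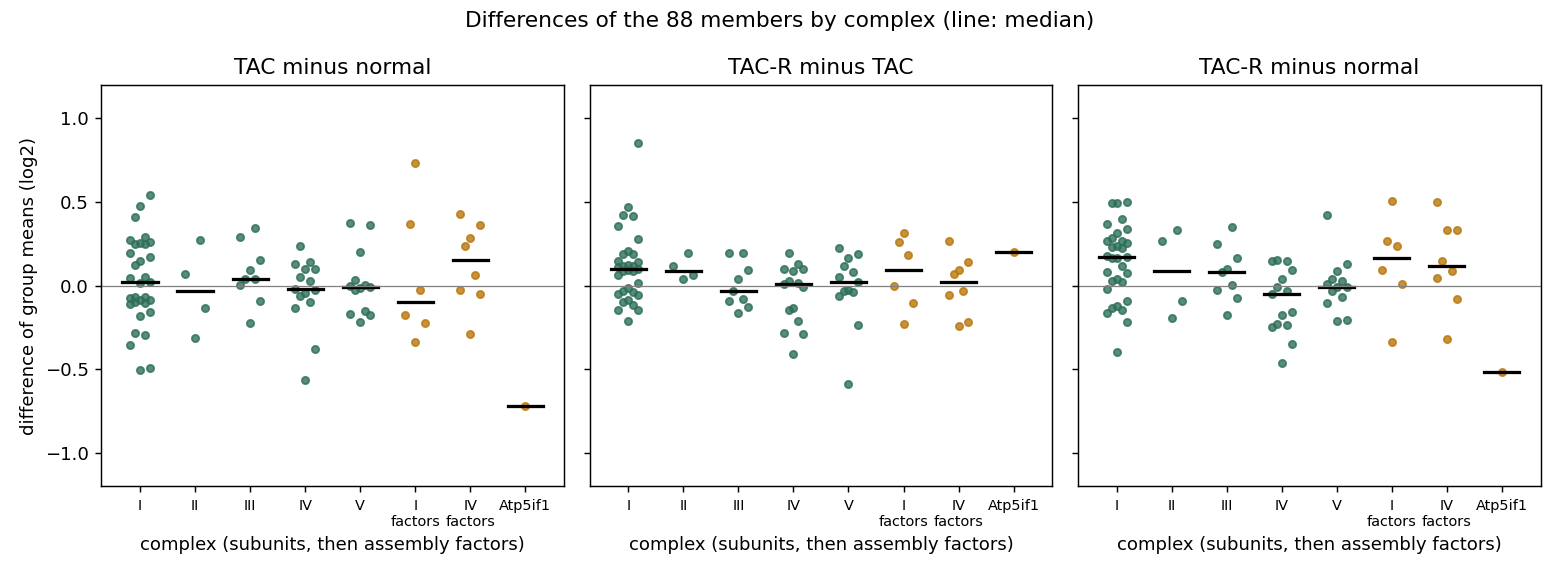
Difference of group means (log2, vertical axis) for each of the 88 genes in the 3 comparisons, with the horizontal axis giving subunits by complex, then assembly factors and Atp5if1; each point is a gene and each line the median of its column. Most columns straddle zero, but the 4 complex II subunits all lie above it in TAC-R minus TAC, and the most distant points are Ndufa2 at 0.85 in TAC-R minus TAC and Ndufaf6 at 0.73 and Atp5if1 at -0.72 in TAC minus normal.

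Complex I takes electrons from NADH and is the largest of the 5 complexes. Its 32 subunits had a median difference of 0.021 for TAC minus normal, 0.097 for TAC-R minus TAC and 0.169 for TAC-R minus normal. Of the 32, 17 did not overlap between TAC and normal (53.1%, against 43.3% of all rows and 49.7% of those above background). Of the 17, 9 were higher and 8 lower. Between TAC-R and TAC, 9 did not overlap (28.1%, against 40.5% and 48.5%). All 9 were higher in TAC-R, where 20.1% of all rows and 1319 of the 5243 rows above background were apart and higher. Between TAC-R and normal 16 did not overlap (50%, against 40.9% and 46.2%). Of the 16, 12 were higher, where 20.6% of all rows and 1540 of the 5243 above background were apart and higher. The first of these medians took the other sign under 4 of the 8 changes of arrays or scaling, with a range of -0.061 to 0.057. The second ran from -0.043, without TAC-R replicate 2, to 0.23, and the third from 0.0034, also without TAC-R replicate 2, to 0.31.

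At the NADH end of complex I, Ndufv1, which binds the flavin that accepts electrons from NADH, read 15.60 and 15.70 in normal hearts, 15.93 and 15.88 under TAC and 15.88 and 16.15 in TAC-R. Both TAC and both TAC-R arrays were above both normal arrays, but the difference of TAC-R from normal was 0.37 ± 0.21 (SE, n = 2 and 2, adjusted p = 0.578). Ndufs1, the largest iron-sulfur subunit, read 17.53 and 17.61, then 17.57 and 17.62, then 17.28 and 17.62, with overlap between all groups and a difference of 0.02 ± 0.22 for TAC minus normal. Ndufv3, a small subunit beside the flavin site, read 15.04 and 14.96 in normal hearts, 14.48 and 14.54 under TAC and 14.89 and 15.08 in TAC-R. The TAC arrays lay below the other 4, which overlapped. Its difference was -0.49 ± 0.21 for TAC minus normal (adjusted p = 0.468) and 0.47 ± 0.21 for TAC-R minus TAC (adjusted p = 0.457).

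The highest and lowest differences of the complex for TAC minus normal were those of accessory subunits. Ndufa6, which holds the acyl carrier protein Ndufab1 on the complex, read 11.94 and 11.99 in normal hearts, 11.36 and 11.55 under TAC and 11.80 and 11.94 in TAC-R. It was the lowest, at -0.51 ± 0.21 (95% interval -0.99 to -0.03, adjusted p = 0.466). Ndufa7 was the highest, reading 13.83 and 13.57, then 14.29 and 14.19, then 13.97 and 14.42. That was 0.54 ± 0.24 for TAC minus normal (adjusted p = 0.485), with TAC and TAC-R both above normal and overlapping each other. Ndufs8, an iron-sulfur subunit near the ubiquinone site, read 14.02 and 13.43 in normal hearts and 14.15 to 14.27 on the other 4 arrays. Its difference of 0.48 ± 0.25 for TAC minus normal (adjusted p = 0.543) had both normal arrays below the other 4, which overlapped.

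The highest difference of any subunit was that of Ndufa2, an accessory subunit of the NADH-oxidising arm. It read 11.89 and 11.96 in normal hearts, 11.53 and 11.61 under TAC and 11.92 and 12.94 in TAC-R. The second TAC-R array stood about 1 log2 unit above the first, which lay within the range of the normal arrays. TAC-R minus TAC was 0.85 ± 0.32 (95% interval 0.13 to 1.58, adjusted p = 0.372), and it was 0.34 without that array and 1.36 without the other. For TAC-R minus normal it was also the highest of the complex, at 0.50 ± 0.32 (adjusted p = 0.609). RefSeq lists 4 pseudogenes named after Ndufa2. Ndufa9 had the lowest difference for TAC-R minus TAC, at -0.21 ± 0.24 (adjusted p = 0.805). Ndufc2 had the lowest for TAC-R minus normal, reading 16.03 and 15.73 in normal hearts and 15.32 and 15.65 in TAC-R (-0.40 ± 0.23, adjusted p = 0.585).

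Complex II oxidises succinate and is also an enzyme of the tricarboxylic acid cycle. All 4 subunits were measured, and their median differences were -0.030, 0.089 and 0.088 for TAC minus normal, TAC-R minus TAC and TAC-R minus normal. Sdha, the flavoprotein that oxidises succinate, read 16.57 and 16.37 in normal hearts, 16.24 and 16.08 under TAC and 16.28 and 16.27 in TAC-R. The normal arrays were above the other 4, and TAC minus normal was -0.31 ± 0.21 (adjusted p = 0.638). Sdhb, the iron-sulfur subunit, read 17.21 and 17.28, then 17.27 and 17.36, then 17.41 and 17.61. TAC-R was above both other groups, by 0.20 ± 0.21 over TAC (adjusted p = 0.791). The membrane anchor Sdhd gave 0.27 ± 0.23 for TAC minus normal (adjusted p = 0.711) and the other anchor, Sdhc, gave 0.04 ± 0.21 for TAC-R minus TAC, the lowest of the complex. For TAC-R minus normal the ends were Sdhd at 0.34 ± 0.23 (adjusted p = 0.625) and Sdha at -0.20 ± 0.21 (adjusted p = 0.784). The 2 soluble subunits and the 2 anchors each held 1 positive and 1 negative difference for TAC minus normal.

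Complex III passes electrons from ubiquinol to cytochrome c. The medians of its 9 subunits were 0.039, -0.034 and 0.080 in the same order. Those that did not overlap between the groups numbered 2, 1 and 3 (22.2%, 11.1% and 33.3%, against 43.3%, 40.5% and 40.9% of all rows). Its core subunit Uqcrc1 read 15.57 and 15.31 in normal hearts, 15.71 and 15.86 under TAC and 15.73 and 15.66 in TAC-R. The normal arrays were below the other 4, and TAC minus normal was 0.34 ± 0.22 (adjusted p = 0.610). The other core subunit, Uqcrc2, was within 16.81 to 16.95 on all 6 arrays. Uqcrfs1, the Rieske iron-sulfur protein, read 16.39 and 15.93, then 16.20 and 16.42, then 16.43 and 16.59. It had the highest differences of the complex for TAC-R, 0.20 ± 0.24 over TAC (adjusted p = 0.817) and 0.35 ± 0.24 over normal (adjusted p = 0.629). Cyc1, cytochrome c1, differed by 0.01 ± 0.21 between TAC and normal. The lowest differences were those of the hinge protein Uqcrh for TAC minus normal (-0.22 ± 0.26), Uqcrb for TAC-R minus TAC (-0.17 ± 0.22) and Uqcrq for TAC-R minus normal (-0.17 ± 0.25).

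**Figure D2:**
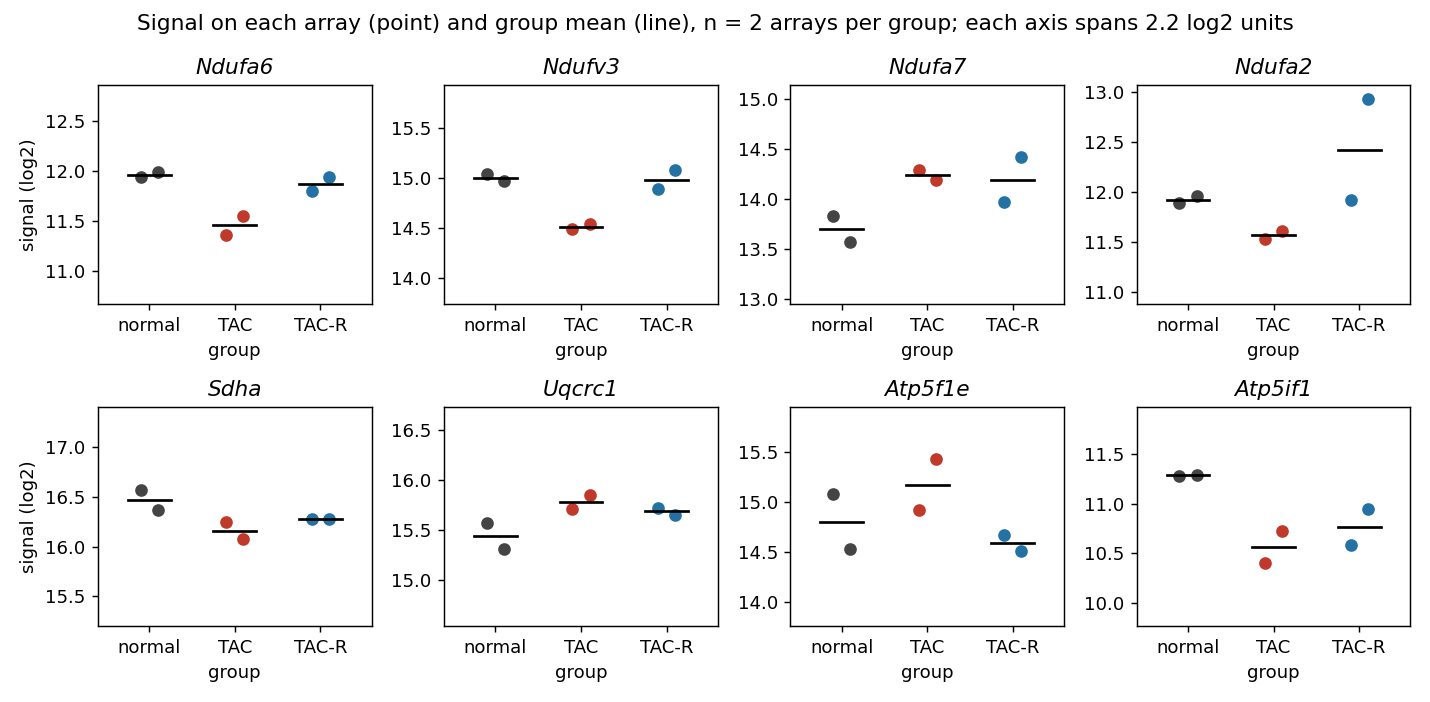
Signal (log2, vertical axis) of 8 of the genes on each of the 6 arrays, by group (horizontal axis); points are arrays, lines are means of 2 arrays, and every panel spans 2.2 log2 units. Ndufa6 and Ndufv3 have both TAC arrays below the other 4, Atp5if1 has both normal arrays above the other 4, and the 2 TAC-R arrays of Ndufa2 lie at 11.92 and 12.94.

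Complex IV, cytochrome c oxidase, hands the electrons to oxygen. Its 15 subunits had medians of -0.017, 0.0075 and -0.047 in the same order. Those that did not overlap between the groups numbered 5, 4 and 1 (33.3%, 26.7% and 6.67%, against 43.3%, 40.5% and 40.9% of all rows). Cox4i1, which occupies the place where ATP acts on the enzyme, read 16.01 and 16.15 in normal hearts, 16.08 and 16.28 under TAC and 15.88 and 16.21 in TAC-R, with all groups overlapping. Cox5a, to which thyroid hormone derivatives bind, read 17.57 and 17.62, then 17.74 and 17.73, then 17.55 and 17.93. Its difference of 0.14 ± 0.22 for TAC minus normal had an adjusted p of 0.864. Ndufa4, first taken for a complex I subunit and later placed in complex IV, ranged from 17.00 to 17.55 over the 6 arrays. Among subunits above background, Cox7b had the lowest difference for TAC minus normal, at -0.38 ± 0.27 (adjusted p = 0.660). Cox6b1 had the highest for TAC-R minus TAC, at 0.19 ± 0.22 (adjusted p = 0.803), and Cox8b the highest for TAC-R minus normal, at 0.16 ± 0.28 (adjusted p = 0.882). The background members of the complex included its lowest values. Cox8c gave -0.56 ± 0.26 for TAC minus normal (adjusted p = 0.505) and -0.46 ± 0.26 for TAC-R minus normal (adjusted p = 0.571). Ndufa4l2 gave the highest difference for TAC minus normal, 0.24 ± 0.23 (adjusted p = 0.757), and the lowest for TAC-R minus TAC. The latter was -0.41 ± 0.23 (adjusted p = 0.574).

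Some complex IV subunits exist as a heart and muscle isoform and a widely expressed one, and the change in their log2 ratio was followed across arrays. The ratio of Cox6a2, the heart and muscle form, to Cox6a1 was 5.74 and 6.07 in normal hearts, 5.66 and 5.77 under TAC and 6.18 and 6.03 in TAC-R. The TAC values lay within or just below the normal range, and TAC-R exceeded TAC by 0.39. Cox6a2 itself stayed between 19.58 and 19.74, close to the top of the scale, while Cox6a1 ran from 13.51 to 13.92. The ratio of Cox8b, the muscle form of rodents, to Cox8a was 1.37 and 1.89, then 1.87 and 1.63, then 1.85 and 2.21, with overlap between all 3 groups. Cox7a2 ran from 17.43 to 17.69, and its heart and muscle counterpart had no named row. Cox4i2 and Ndufa4l2, the forms linked to low oxygen, stayed in the background on all 6 arrays, at 3.20 to 3.90 and 4.70 to 5.35. The size of a ratio between probes of different genes has no meaning here, only its change between arrays.

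Complex V makes ATP with a catalytic head, a rotating stalk and a membrane ring. Its 13 subunits had medians of -0.0067, 0.023 and -0.0081 in the same order. Atp5f1a and Atp5f1b, the alpha and beta subunits of the head, were near the top of the scale. Atp5f1a read 19.46 on 4 arrays, 19.45 on TAC replicate 1 and 19.40 on TAC-R replicate 1. Atp5f1b read 19.54 on 4 arrays, 19.60 on TAC replicate 2 and 19.53 on TAC-R replicate 2. Neither gene's values separated the groups, and identical readings on 4 arrays so close to the top limit what these rows can show. In the rotating stalk, Atp5f1e read 15.08 and 14.53 in normal hearts, 14.92 and 15.44 under TAC and 14.67 and 14.52 in TAC-R. It had the highest difference of the complex for TAC minus normal (0.37 ± 0.27, adjusted p = 0.668) and the lowest for TAC-R minus TAC (-0.59 ± 0.27, adjusted p = 0.483), and also the lowest for TAC-R minus normal (-0.21 ± 0.27, adjusted p = 0.825). Atp5f1d, its partner in the stalk, gave 0.36 ± 0.23 and -0.24 ± 0.23 in the same comparisons.

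Of the 13 subunits, 6 did not overlap between TAC and normal (2 higher), 1 between TAC-R and TAC and 2 between TAC-R and normal. These are 46.2%, 7.69% and 15.4%, against 43.3%, 40.5% and 40.9% of all rows. Atp5mg, a membrane subunit, read 14.73 and 14.87, then 14.89 and 15.11, then 14.78 and 15.67, and its high reading was that of TAC-R replicate 2. It gave the highest differences for TAC-R, 0.22 ± 0.30 over TAC and 0.42 ± 0.30 over normal (adjusted p = 0.838 and 0.647), and RefSeq lists 8 pseudogenes under its name. Atp5pd, of the outer stalk, had the lowest difference for TAC minus normal, at -0.22 ± 0.22 (adjusted p = 0.772). The ring subunit c is made by several genes, and the log2 ratio of Atp5mc1 to Atp5mc2 was 0.34 and 0.52, then 0.46 and 0.40, then 0.65 and 0.51. These values overlapped between normal and each other group, and both TAC-R values were above both TAC values.

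Atp5if1 is the small protein that stops the ATP synthase from running backwards and consuming ATP. It had the lowest difference of all 88 genes for TAC minus normal. It read 11.28 and 11.29 in normal hearts, 10.40 and 10.73 under TAC and 10.58 and 10.95 in TAC-R. Both normal arrays were above the other 4, and TAC and TAC-R overlapped. TAC minus normal was -0.72 ± 0.23 (95% interval -1.25 to -0.19, adjusted p = 0.368), and without either TAC array in turn it was -0.56 and -0.88. TAC-R minus normal was -0.52 ± 0.23 (95% interval -1.05 to 0.01, adjusted p = 0.474), and TAC-R minus TAC was 0.20 ± 0.23 (adjusted p = 0.810). The comparisons of TAC and of TAC-R with normal share the normal arrays.

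Assembly factors build the complexes, in most cases without staying in them. The 14 under the symbol rule had median differences of 0.021, 0.035 and 0.119 in the same order. Those that did not overlap between the groups numbered 4, 3 and 4 (28.6%, 21.4% and 28.6%, against 43.3%, 40.5% and 40.9% of all rows). Ndufaf6, needed for early assembly of complex I, had the highest difference of all 88 genes for TAC minus normal. It read 9.37 and 8.90 in normal hearts, 9.89 and 9.85 under TAC and 9.43 and 9.85 in TAC-R, with all 4 later values above the normal ones. The difference was 0.73 ± 0.25 for TAC (95% interval 0.16 to 1.30, adjusted p = 0.398) and 0.50 ± 0.25 for TAC-R (adjusted p = 0.523). For complex IV, Cox20, which helps to insert a mitochondrially encoded subunit, read 13.50 and 13.16, then 12.93 and 13.15, then 13.17 and 12.85 (TAC minus normal -0.29 ± 0.24, adjusted p = 0.708). The copper chaperone Cox17 had the highest difference for TAC-R minus TAC among its factors, at 0.27 ± 0.25 (adjusted p = 0.756). Cox7a2l, which joins complexes III and IV and was counted here with the factors, had the lowest, at -0.24 ± 0.22 (adjusted p = 0.749). Of the factors above background, Ndufaf6 was the lowest for complex I in TAC-R minus TAC (-0.23 ± 0.25, adjusted p = 0.800) and Cox20 the lowest for complex IV in TAC-R minus normal (-0.32 ± 0.24, adjusted p = 0.668). The remaining extremes were genes in the background, Ndufaf7 (-0.34 ± 0.32 for TAC minus normal), Cox19 (0.43 ± 0.33) and Ndufaf4 (0.31 ± 0.23 for TAC-R minus TAC).

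The 2 TAC-R arrays differed from each other in the subunits more than those of the other groups did. TAC-R replicate 2 read higher than replicate 1 for 59 of the 73 subunits (80.8%), by a median of 0.27. In TAC, replicate 2 was higher for 53 (72.6%), by a median of 0.080, and in normal hearts for 31 (42.5%), with a median of -0.011. Over the rows above background on all arrays, TAC-R replicate 2 was higher in 53.2%, by a median of 0.028. For replicate 2 of TAC and of normal hearts the shares of these rows were 46.5% and 38.7%. The TAC-R arrays were also further apart over these rows, with a median absolute difference of 0.225, against 0.162 in TAC and 0.175 in normal hearts. For the subunits these were 0.273, 0.141 and 0.115. TAC-R replicate 2 was higher in 26 of 32 complex I subunits, 2 of 4 of complex II and 7 of 9 of complex III. The same held for 13 of 15 of complex IV, 11 of 13 of complex V and 8 of the 14 assembly factors. The highest signal of the 6 arrays lay on TAC-R replicate 2 for 40 of the 73 subunits, against 27.5% of the rows above background. The lowest lay on TAC-R replicate 1 for 26 subunits, against 15.0% of those rows.

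This split set the sign of the subunit medians. Without TAC-R replicate 1 the median was 0.18 for TAC-R minus TAC and 0.164 for TAC-R minus normal. Without TAC-R replicate 2 it was -0.082 and -0.080. As deviations from the normal mean, the medians of the 73 subunits were -0.038 and 0.046 on the TAC arrays and -0.080 and 0.164 on the TAC-R arrays, so the TAC arrays lay between the TAC-R arrays. Subunits with both TAC-R arrays above all 4 others numbered 7 of 73 (9.59%, against 9.28% of all tested rows and 14.8% of those above background), namely Ndufa10, Ndufa10l1, Ndufa12, Ndufs4, Ndufs5, Sdhb and Uqcrfs1, and none had both below (against 9.06% and 9.96%). Among these Ndufs4, an accessory subunit of complex I, read 13.41 and 13.38 in normal hearts, 13.27 and 13.20 under TAC and 13.53 and 13.79 in TAC-R. Its difference for TAC-R minus TAC was 0.42 ± 0.21 (adjusted p = 0.524).

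**Figure D3:**
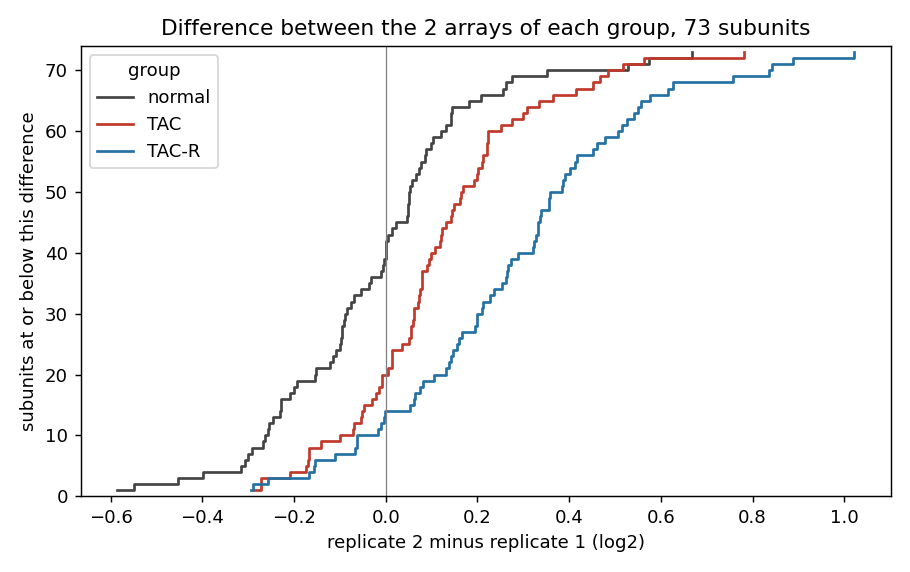
Cumulative number of the 73 subunits (vertical axis) at or below a given difference between replicate 2 and replicate 1 (log2, horizontal axis), 1 line for each group. The TAC-R line lies to the right, with a median of 0.27 and 59 subunits above zero, while the normal line is centred near zero with a median of -0.011.

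**Figure D4:**
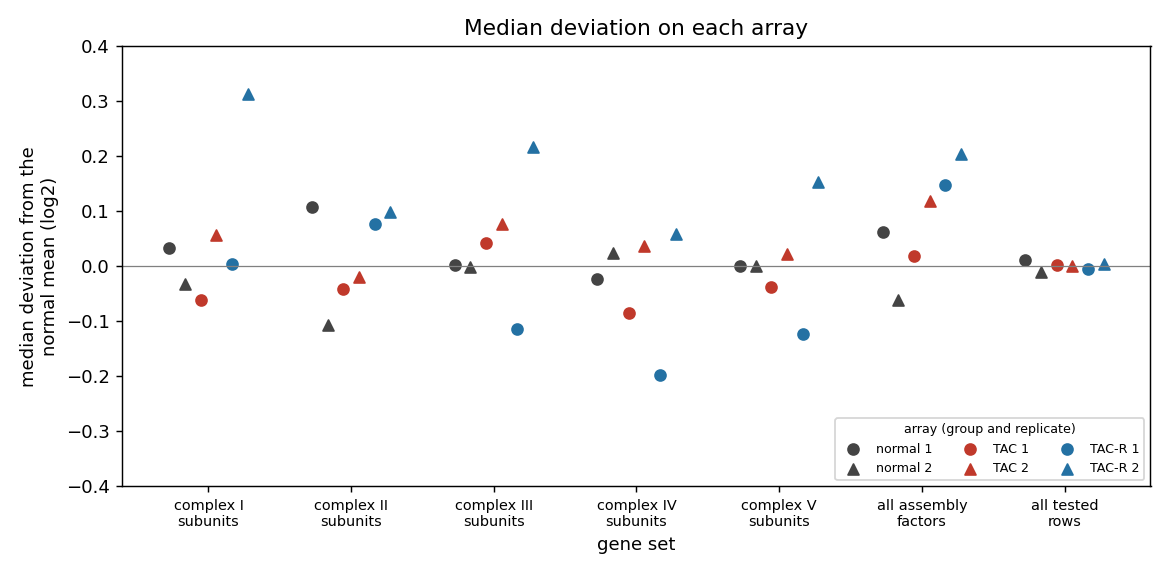
Median deviation from the normal mean (log2, vertical axis) on each of the 6 arrays for the subunits of each complex, the assembly factors and all tested rows (horizontal axis); circles are replicate 1, triangles replicate 2, and colours are groups. In complexes III, IV and V the TAC-R arrays lie lowest and highest of the 6, and in complex I they lie at 0.0034 and 0.312.

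Markers of other cells moved between the same arrays, and their part in the subunit values was not tested. All 8 red cell genes were higher under TAC than in normal hearts with no overlap (against 21.9% of all rows), and 5 passed limma's test. Among the 5 was Alas2, the first enzyme of erythroid haem synthesis (3.03 ± 0.22, adjusted p = 0.00341, from normal arrays in the background). The list's median deviation was 2.24 and 2.11 on the TAC arrays. Of 12 fibroblast genes, 4 of them in the background, 11 were lower in TAC-R than in TAC with no overlap (median -0.83). The same held for 20.4% of all rows. Of the 12, 2 passed the test there, the collagens Col1a2 (-1.66 ± 0.27, adjusted p = 0.0469) and Col3a1 (-1.72 ± 0.24, adjusted p = 0.0269). Between TAC and normal, 10 were higher and 1 lower with no overlap (21.9% and 21.3% of all rows), and none passed. The fibroblast list's median deviation was 0.67 and 0.58 under TAC and -0.22 and -0.59 in TAC-R. The median of 8 atrial genes was 1.48 and 0.40 in TAC-R, and Myl7, the atrial light chain, rose by 5.93 ± 0.47 from TAC (adjusted p = 0.00315), from a level in the background. Of 16 heart muscle genes, which include the subunit Cox6a2, only Myh7, the slow myosin heavy chain, passed the test. It gave -2.10 ± 0.20 for TAC minus normal (adjusted p = 0.00627) and 2.10 ± 0.20 for TAC-R minus TAC (adjusted p = 0.00663). Both are bounds, since 1 normal and 1 TAC-R array were at the top of the scale. None of 9 endothelial, 12 macrophage, 10 skeletal muscle and 8 fat genes passed the test in any comparison, and of 10 smooth muscle genes only Cnn1 did, in TAC against normal and in the background. Without passing it, all 9 endothelial genes were lower in TAC-R than in TAC with no overlap (median -0.60, against 20.4% of all rows lower with no overlap). The list deviations were -0.37 and -0.63 on the TAC-R arrays. All 12 macrophage genes had positive differences for TAC minus normal (median 0.41, with 8 of them in the background). Of 10 smooth muscle genes 9 were lower in TAC-R than in TAC with no overlap (median -0.55, against the same 20.4%). The brown fat marker Ucp1 and the skeletal muscle markers Myh4, Pvalb and Actn3 were in the background on all 6 arrays.

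Other genes of mitochondrial biogenesis and energy metabolism, from lists chosen by function, gave no call either. Among 23 regulators of mitochondrial biogenesis 0 passed limma's test in each comparison, with 2, 0 and 1 at an unadjusted p under 0.05. Of all rows, 10.3%, 11% and 10.7% reached that p. Of the 23, 10 were in the background on all arrays. Ppargc1a, the coactivator named above, read 14.44 and 14.51 in normal hearts, 14.51 and 14.42 under TAC and 14.53 and 14.42 in TAC-R, with all groups overlapping. Tfam, which packs and transcribes mitochondrial DNA, read 10.00 and 9.97, then 9.37 and 9.36, then 9.55 and 9.99. Its difference of -0.62 ± 0.23 for TAC minus normal was the largest of the list, with an adjusted p of 0.413. Gabpa, the DNA-binding subunit of GABP, gave 0.49 ± 0.24 for TAC-R minus TAC (adjusted p = 0.508), and Esrra, an oestrogen-related receptor, gave 0.67 ± 0.25 for TAC-R minus normal (adjusted p = 0.398).

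The remaining lists gave the same count of calls. None passed limma's test among 15 tricarboxylic acid cycle enzymes, 17 genes of cytochrome c and ubiquinone, 36 further assembly factors, 42 proteins of the large and 24 of the small mitochondrial ribosomal subunit, and 12 regulators of complexes IV and V under low oxygen. In that order, 0, 1, 0, 1, 3 and 1 genes had an unadjusted p under 0.05 for TAC minus normal. The numbers were 0, 2, 4, 4, 2 and 3 for TAC-R minus TAC and 0, 3, 4, 5, 1 and 0 for TAC-R minus normal. Of all rows, 10.3%, 11% and 10.7% reached that p in the 3 comparisons. In the background on all arrays were 3 of the 17, 6 of the 24 and 3 of the 12 genes. The last list includes Atp5if1, and the list of further assembly factors includes Cox7a2l, which is under the symbol rule too. By overlap, 22 of the 36 further assembly factors were apart between TAC-R and TAC, with a median difference of 0.18. That is 61.1%, against 40.5% of all rows and 48.5% of those above background. Of the 22, 18 were higher and 4 lower (20.1% and 20.4% of all rows), and 11 of the 36 were in the background on all arrays. For the large ribosomal subunit 14 of 42 (33.3%, against 40.9% and 46.2%) were apart between TAC-R and normal. All 14 were higher, against 20.6% of all rows and 1540 of the 5243 above background. Of the 42 differences 35 were positive (median 0.21), and 5 of the 42 genes were in the background on all arrays. Cycs, cytochrome c itself, read 13.47 and 13.60 in normal hearts, 13.11 and 12.88 under TAC and 13.18 and 13.30 in TAC-R (TAC minus normal -0.54 ± 0.21, adjusted p = 0.448). Among cycle enzymes the largest differences were 0.26 for Mdh2 (TAC minus normal, adjusted p = 0.692), 0.33 for Dlat (TAC-R minus TAC, adjusted p = 0.651) and -0.40 for Suclg2 (TAC-R minus normal, adjusted p = 0.546). Coq5, an enzyme of ubiquinone synthesis, was above background on 5 of the 6 arrays. It had the largest differences of its list for TAC-R, 0.70 over TAC and 0.99 over normal (adjusted p = 0.435 and 0.314). Among other assembly factors these were Ttc19 of complex III (0.53 for TAC minus normal, adjusted p = 0.547) and, in the background, Nubpl and Tmem186. In the large ribosomal subunit they were Mrpl37 (0.48 for TAC minus normal, adjusted p = 0.522), Mrpl12 (0.74 for TAC-R minus TAC, adjusted p = 0.282) and Mrpl19 (0.69 for TAC-R minus normal, adjusted p = 0.314). In the small one Mrps27 had the largest for TAC minus normal (0.70, adjusted p = 0.351), but was above background on only 1 array. Bnip3, a mitophagy receptor induced by low oxygen, gave 0.68 for TAC-R minus TAC (adjusted p = 0.424). Of these lists the smallest adjusted p belonged to Mrps7, a protein of the small ribosomal subunit. It read 8.99 and 8.94 in normal hearts, 8.84 and 8.82 under TAC and 9.67 and 9.66 in TAC-R, and TAC-R minus TAC was 0.83 (adjusted p = 0.169).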

How the data were processed

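The values were log2 signals that the authors derived by RMA (robust multi-array averaging) from core exons with Expression Console, per the labels. This method equalises the arrays' distributions, and a change of every transcript in 1 direction is lost. For scan dates, versions and background settings the sources used here give nothing. Array medians of the tested rows were 5.31 to 5.39, and the 2 arrays of a group correlated at 0.991 to 0.993.

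Control rows (1646 of 24834) were left out, and no scaling was added to the deposited log2 values. Gene symbols came from the platform annotation (1 symbol for 15049 rows, none for 8139), and 88 of 88 members matched the RefSeq symbol of their gene ID. limma 3.58.1 in R 4.3.3 was run over the 6 arrays, with a mean for each group (3 residual degrees of freedom, prior 5.71) and Benjamini-Hochberg adjustment over 23188 rows. Differences are given ± SE of that model. For a single gene, the smallest p of a two-sided exact permutation test of 2 against 2 is 0.33. Named were genes past the threshold, the highest and lowest member per complex and comparison, catalytic subunits and isoform pairs. From each other list, called genes and the largest difference were named. Only some of these are printed for the marker lists, and none for the cytosolic ribosome. Ndufv3, Ndufs4, Ndufs8, Ndufa4, Atp5f1d, Uqcrc2, Cox7b, Mrps7, Cox7a2l and Ppargc1a, where outside that rule, were picked after their values were seen. The members and gene lists were chosen with earlier results of these data known. Alternatives left out each array, changed the scaling, the moderation, the rows and the samples fitted, or added the replicate number.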

Additional observations from a re-analysis of the deposited data

How the results depend on the processing

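Under all 15 alternatives that could be run, 0 subunits passed the threshold in each of the 3 comparisons, and 0 members did. The number of all rows called ranged over them from 0 to 170 in TAC against normal, 4 to 344 in TAC-R against TAC and 0 to 156 in TAC-R against normal, so the alternatives that call few rows of any kind say nothing about stability. With limma's intensity trend, an unadjusted p under 0.05 was reached by 11, 6 and 9 of the 88 genes. These counts are for TAC against normal, TAC-R against TAC and TAC-R against normal, and the share of all rows was not counted. In the same order, the smallest adjusted p was 0.123 (Ndufv3), 0.0955 (Ndufv3) and 0.249 (Ndufv1). Leaving out each array in turn, where the lone array of a group is assumed to vary like the other groups, moved the median of the subunits from -0.038 to 0.046 for TAC minus normal, from -0.082 to 0.18 for TAC-R minus TAC and from -0.080 to 0.164 for TAC-R minus normal. Both ends of the last 2 ranges are from leaving out a TAC-R array. Centring the arrays on their medians gave 0.029, 0.079 and 0.088. Differences of replicate 2 from replicate 1 correlated at 0.0117 between normal and TAC, -0.00932 between normal and TAC-R and -0.0127 between TAC and TAC-R. These correlations run over all 23188 tested rows, of which 5243 were above background on all arrays. A pairing among those 5243 rows was not tested. Of the 73 subunits, 31 in normal hearts, 53 in TAC and 59 in TAC-R read higher on replicate 2. With the replicate block 0 subunits were called in each comparison, 3, 1 and 0 members had an unadjusted p under 0.05, and the medians were 0.00575, 0.054 and 0.039. Taking the lowest row of a gene could not be run, because each gene had 1 row. Genes in the background and the 3 near the top of the scale have differences whose size the signal does not give.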

Other observations

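The proteins of the cytosolic ribosome, a list picked after the values were seen, also read higher on replicate 2 of both operated groups. Of 71 genes, 56 were higher on TAC replicate 2, by a median of 0.170, and 55 on TAC-R replicate 2, by a median of 0.279. On the normal arrays 33 were higher on replicate 2, with a median of -0.034. Proteins of the mitochondrial ribosome were higher on TAC-R replicate 2 in 28 of 42 genes of the large and 17 of 24 of the small subunit, and tricarboxylic acid cycle enzymes in 11 of 15, but on TAC replicate 2 the cycle enzymes were higher in 5 of 15. Regulators of mitochondrial biogenesis were higher on TAC-R replicate 2 in 10 of 23. The cause of these splits was not tested.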
